A study of Rattus norvegicus with 12 samples.

Results

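The 5 circular RNAs (circRNAs) described here are novel_circ_0000293, novel_circ_0005920, novel_circ_0006485, novel_circ_0005281 and novel_circ_0010129, taken by identifier from a table of 21914 circRNAs in rat brain. The study listed them as node circRNAs that were higher in HT+EA than in HT, so they were chosen from a measured difference between these very groups. That difference is therefore given below as a description, and no test of it is used. Of the 5, 2 were well-counted, with a mean raw count of at least 10 over the libraries, and 3 were low-count.

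The libraries were made from total RNA of the PVN, a hypothalamic nucleus that drives the stress axis, in male Sprague-Dawley rats. The rats were bought at 7 weeks of age, were left to adapt before the experiment, and were sampled 24 h after the last treatment. There were 4 groups of 3 libraries. NC rats were not operated. HT rats had a partial hepatectomy and no needling. HT+EA rats had the same operation with electroacupuncture, an electric current through needles at the Zusanli and Sanyinjiao points of the hind limb, on the day before surgery and directly after it. HT+SEA rats had the operation and needles at the same points with no current. Rats of all 4 groups were placed in a restraint device, so NC was restrained as well, and the 3 operated groups shared the anesthetic and the surgery. The tissue field of the labels says only brain, while the sample titles name the PVN. The circRNAs carry no gene names, so tissue markers could not be checked in this table. No label ties a library to a rat, and p-values measure the spread between these libraries.

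A circRNA is formed when a downstream splice donor joins an upstream acceptor, which closes the RNA into a ring without free ends. Rings resist exonucleases and are plentiful in neurons. Some carry sites for microRNAs (miRNAs), short RNAs that pair through their seed with messenger RNAs and lower their output. A ring that binds a miRNA can in principle leave less of it for its messenger RNA targets, and this idea of competing RNAs is the one on which the study's network of circRNAs, miRNAs and genes was built.

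The study's list ties the 5 circRNAs to 6 miRNAs and 10 genes. The links were predicted by target software. The study then kept those whose miRNAs and messenger RNAs were differentially expressed in its own PVN sequencing. It also required the circRNA to change with the messenger RNA and the miRNA to change against it. The counts used here cover circRNAs alone, so no level of a miRNA or messenger RNA is given. The 6 mature miRNA sequences are shown because a seed is what a ring would have to match to act as proposed. All 6 were found in RefSeq on the rat build GRCr8. They are written 5′ to 3′ in lower case with the seed, bases 2 to 8, in capitals:
rno-miR-17-1-3p: aCUGCAGUgaaggcacuugugg
rno-miR-497-5p: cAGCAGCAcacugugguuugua
rno-miR-326-3p: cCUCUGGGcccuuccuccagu
rno-miR-33-5p: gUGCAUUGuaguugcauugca
rno-miR-1843a-5p: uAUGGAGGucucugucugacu
rno-miR-3084a-3p: uUCUGCCAguccccuucagaca
The 6 seeds were all different, so no pair of these miRNAs belonged to a common seed family. The mature rno-miR-17-1-3p is encoded at chr15:98587898-98587919 on the plus strand and rno-miR-497-5p at chr10:55450172-55450193 on the plus strand. The rno-miR-326-3p locus, chr1:163266224-163266244 on the plus strand, lies within the span of Arrb1, which encodes a beta-arrestin. The locus of rno-miR-33-5p, chr7:115593957-115593977 on the plus strand, lies within Srebf2, which encodes a regulator of cholesterol synthesis. The rno-miR-1843a-5p locus, chr6:104955400-104955420 on the minus strand, lies within the span of Dcaf5. A pair of loci encodes rno-miR-3084a-3p, chr19:55718541-55718562 within Sf3b3 and chr6:93551127-93551148 where Klhdc2 and Nemf overlap, both on the minus strand. Spans were taken from the gene table alone, so exons and introns were not told apart.

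novel_circ_0000293 was tied to rno-miR-17-1-3p and through it to Vim, which encodes the intermediate filament protein vimentin. novel_circ_0005920 was tied to rno-miR-497-5p and Gda, the guanine deaminase that turns guanine into xanthine. novel_circ_0006485 had the most partners, 3 miRNAs and 6 genes. It shared rno-miR-17-1-3p and Vim with novel_circ_0000293, and rno-miR-497-5p and Gda with novel_circ_0005920. Its other miRNA, rno-miR-326-3p, led to Col6a2, a collagen VI chain, Serpinf1, a secreted serpin known as pigment epithelium-derived factor, Ruvbl1, an ATPase of chromatin remodelling complexes, and Med9, a Mediator subunit. novel_circ_0005281 was tied to rno-miR-33-5p and Tpm3, a tropomyosin that coats actin filaments. novel_circ_0010129 was tied to rno-miR-1843a-5p and Drg1, a GTP-binding protein, and to rno-miR-3084a-3p with En2, a homeobox transcription factor, and Krt8, a keratin of simple epithelia. The most connected member, novel_circ_0006485, was thus a low-count one.

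The libraries held 134903 to 360524 circRNA reads in total, with a median of 220991. HT replicate 3 was the shallowest and HT+EA replicate 2 the deepest. The table held no value of 1, so a value was either 0 or at least 2, and a 0 could not be given an upper limit. Levels are given as counts per 1000000 reads (CPM), scaled with factors from the trimmed mean of M-values (TMM), in which 2 counts were worth between 6.52 CPM in HT+EA replicate 2 and 16.3 CPM in HT replicate 3. Of the 21914 circRNAs, 4838 had enough counts to be tested, among them 3 of the 5 members. The low-count novel_circ_0006485 was among these partly through HT+EA replicate 1.

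The well-counted novel_circ_0005920 was lowest in HT and higher in the other 3 groups. Its raw counts were 319, 307 and 326 in NC and 188, 249 and 99 in HT. They were 258, 533 and 283 in HT+EA and 341, 211 and 233 in HT+SEA. Scaled for depth, these were 1615, 1545 and 1481 CPM in NC, 1168, 1166 and 807 CPM in HT, 1380, 1737 and 1497 CPM in HT+EA, and 1547, 1343 and 1373 CPM in HT+SEA. All 3 HT libraries lay below all of the other libraries, while NC, HT+EA and HT+SEA overlapped one another. This circRNA ranked 84 by mean count, at 279 reads a library.

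The group means of novel_circ_0005920 fell in the order NC, HT+EA, HT+SEA and HT, at 1547 ± 67.3, 1538 ± 182, 1421 ± 110 and 1047 ± 207 CPM (SD, n = 3). The ranges of the first 3 overlapped, which at n = 3 does not show that their levels were the same. The step of 374 CPM from HT+SEA to HT was the only one between groups whose ranges did not overlap. An HT group below every other library was seen in 26 of the tested circRNAs, or 0.537%, and in 1 of the 3 tested members. Since the members were chosen for being low in HT beside HT+EA, nothing is read from that count. HT+EA lay above HT by 0.55 on the log2 scale (SE 0.152), or 1.47-fold, and without HT replicate 3, which had the lowest level and the lowest depth, by 0.40. Whether depth played a part was not tested. In bulk tissue, fewer cells of a type and less RNA per cell cannot be told apart.

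novel_circ_0000293 was highest in HT+EA, and its lowest and its second highest group overlapped widely. Its raw counts were 38, 58 and 65 in NC, 28, 56 and 29 in HT, 60, 104 and 92 in HT+EA, and 31, 52 and 60 in HT+SEA. In CPM the NC libraries stood at 192, 292 and 295 and the HT libraries at 174, 262 and 236. The HT+EA libraries stood at 321, 339 and 487 CPM and the HT+SEA libraries at 141, 331 and 354 CPM. Every HT+EA library was above every HT and every NC library, but HT+SEA replicates 2 and 3 reached into the HT+EA range while HT+SEA replicate 1 was the lowest of all. The share of all circRNAs with HT+EA above NC was not computed, so nothing is read from that separation.

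In order of level, the groups for novel_circ_0000293 were HT+EA at 382 ± 91.0, HT+SEA at 275 ± 117, NC at 260 ± 58.4 and HT at 224 ± 45.4 CPM (SD, n = 3). Each group overlapped the next one in that order, so no neighbouring pair was set apart by its range. HT+EA lay above HT by 0.76 on the log2 scale (SE 0.338), or 1.70-fold. Leaving out HT+EA replicate 3, the highest library, gave 0.55, and leaving out HT replicate 2 gave 0.90. The mean count was 56.1 reads a library, rank 734 in the table.

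**Figure D1:**
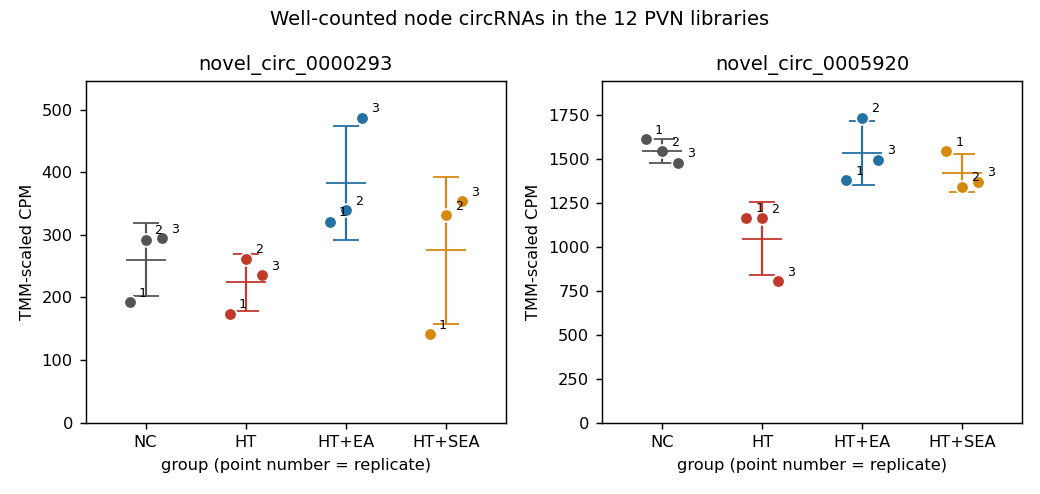
TMM-scaled CPM of the 2 well-counted circRNAs in each of the 12 libraries (points, numbered by replicate) with the group mean and SD (bars), on axes that start at 0. For novel_circ_0005920 the HT libraries, at 807 to 1168 CPM, sit below all others, and for novel_circ_0000293 the HT+EA libraries, at 321 to 487 CPM, sit above HT and NC but overlap HT+SEA.

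The 2 well-counted members differed in how steady they were within NC and within HT+SEA, groups outside the contrast of HT+EA with HT. The within-group SD of log2 CPM was 0.0885 for novel_circ_0005920 and 0.555 for novel_circ_0000293. Among the 227 tested circRNAs with a mean count within 2-fold of novel_circ_0005920, 4.85% had a smaller SD, and the median was 0.207. For novel_circ_0000293 the same share was 85.5% of 1208 circRNAs, whose median was 0.315. The coefficient of variation of CPM was 4.35% in NC and 7.72% in HT+SEA for novel_circ_0005920, beside 22.5% and 42.5% for novel_circ_0000293. The spread of novel_circ_0000293 rested on HT+SEA replicate 1. Without that library its SD was 0.278, 40.0% of circRNAs of its count level had a smaller one, and the coefficient of variation in HT+SEA was 4.66%. With any other NC or HT+SEA library left out, a check added after seeing the data, the share was 84.4% to 91.3%. For novel_circ_0005920 the share ran from 0.441% without HT+SEA replicate 1 to 16.7% without NC replicate 3.

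The 3 low-count members had mean counts of 4.25 to 6 and together gave 0, 2 and 0 reads in the 3 HT libraries. In NC the sums over the 3 were 7, 17 and 31 reads, in HT+EA 22, 36 and 28, and in HT+SEA 10, 10 and 22. All 3 were therefore all but missing from HT and were counted in at least 1 library of each other group, NC and HT+SEA included. With so few reads their levels in single libraries carry a large counting error.

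novel_circ_0006485 was listed at 0 in all HT libraries and was counted in 8 of the other 9. Its raw counts were 0, 9 and 13 in NC, 0, 0 and 0 in HT, 17, 8 and 3 in HT+EA, and 6, 5 and 11 in HT+SEA. In CPM the HT+EA libraries were at 90.9, 26.1 and 15.9 and the HT+SEA libraries at 27.2, 31.8 and 64.8. HT+EA and HT+SEA covered much the same range, and NC, at 0, 45.3 and 59.1 CPM, overlapped both and touched HT through its library at 0. The means were 44.3 ± 40.7 CPM in HT+EA, 41.3 ± 20.5 CPM in HT+SEA and 34.8 ± 30.9 CPM in NC (SD, n = 3), and no neighbouring pair in that order, HT included, was free of overlap. The HT+EA mean rested on HT+EA replicate 1, and without it the difference from HT was 20.6 in place of 44.3 CPM.

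novel_circ_0005281 appeared in 5 of 12 libraries and was not present in every HT+EA library. Its raw counts were 7, 0 and 9 in NC, 0, 0 and 0 in HT, 0, 16 and 13 in HT+EA, and 0, 0 and 6 in HT+SEA. The libraries in which it was counted stood at 35.4 to 68.8 CPM, so it was either listed at 0 or well above the level of 2 reads. All 4 groups held a library at 0, and the ranges of all 4 therefore overlapped. Group means were 40.3 ± 35.9 CPM in HT+EA, 25.4 ± 22.2 in NC and 11.8 ± 20.4 in HT+SEA (SD, n = 3). Without HT+EA replicate 3 the HT+EA mean lay 25.7 CPM above the HT libraries listed at 0, and without HT+EA replicate 1 it lay 59.2 CPM above them. A value of 0 in as many as 7 libraries was found in 1.22% of the 2138 circRNAs whose mean count lay within 1 of its own, which had a median of 3 libraries at 0. The same share was 4.61% for novel_circ_0006485, with 4 libraries at 0, and 27.1% for novel_circ_0010129, with 3. The zeros include those of HT, where the choice favoured low levels, so nothing is read from these shares.

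novel_circ_0010129 was counted in 9 of 12 libraries. Its raw counts were 0, 8 and 9 in NC, 0, 2 and 0 in HT, 5, 12 and 12 in HT+EA, and 4, 5 and 5 in HT+SEA. In CPM the HT+EA libraries lay at 26.7, 39.1 and 63.5 and the HT+SEA libraries at 18.1, 31.8 and 29.5, both above the single counted HT library at 9.36. NC spanned 0 to 40.9 CPM and overlapped every other group. The means were 43.1 ± 18.7 CPM in HT+EA, 27.0 ± 23.4 in NC, 26.5 ± 7.32 in HT+SEA and 3.12 ± 5.40 in HT (SD, n = 3). In that order only HT+SEA and HT were neighbours without overlap. The share of all circRNAs with HT+SEA above HT was not computed, and nothing is read from it.

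**Figure D2:**
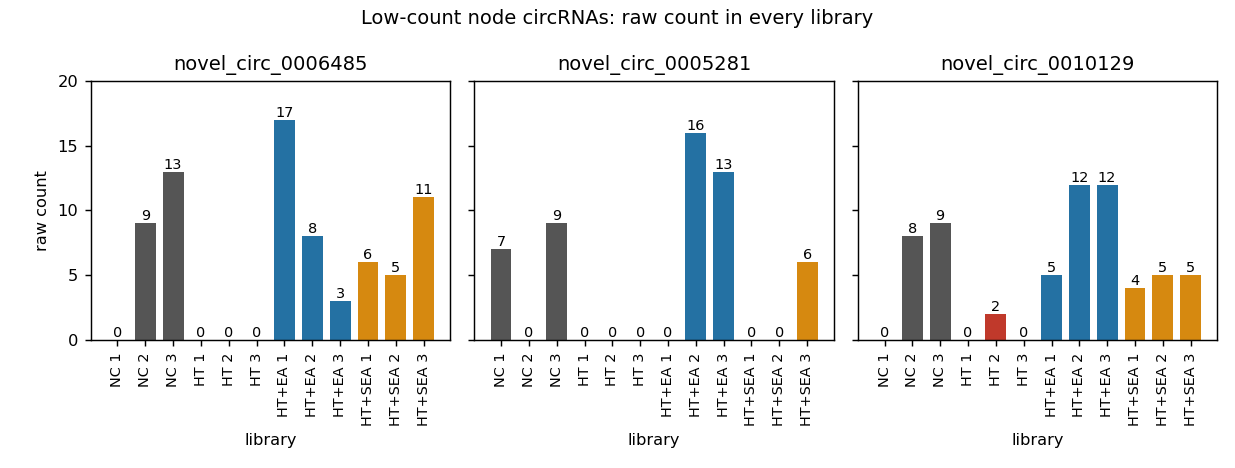
Raw count of the 3 low-count circRNAs in each of the 12 libraries, with the count printed above each bar and groups in the order NC, HT, HT+EA and HT+SEA. The HT libraries hold 2 reads in all, and the other groups range from 0 to 17 reads a library.

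The separation of HT+EA from HT was read beside its background. All HT+EA libraries were above all HT libraries in all 3 tested members, and in 6.01% of the 4838 tested circRNAs. Among the 6478 circRNAs with a mean count from 2 to 10, 5.6% showed that separation. It held for novel_circ_0006485 and novel_circ_0010129, and it did not hold for novel_circ_0005281, whose HT+EA replicate 1 was at 0. A value of 0 in all HT libraries was found in 4.37% of the same 6478 circRNAs and in 2 of the 3 low-count members. These counts describe the choice of the members, which used this contrast.

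Zeros in the low-count members were not limited to HT. NC 1, NC 2, HT+EA 1, HT+SEA 1 and HT+SEA 2 also held a 0 for at least 1 of the 3 low-count circRNAs, with totals between 177533 and 258005 reads.

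The study's threshold was an unadjusted p of 0.05, and the p of the edgeR fit is used here only to find the circRNAs beside it. The member nearest to it from inside was novel_circ_0000293, with a p of 0.0425 and the log2 difference of 0.76 given above. The nearest circRNA outside it with a higher level in HT+EA was novel_circ_0036293, which is not a member, with a p of 0.0507, a log2 difference of 0.43 and a mean count of 62.1. The study's own test was DESeq2, with a network step after it. These edgeR values therefore do not show where either circRNA stood in that choice, and they support nothing further.

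HT+SEA against NC was the one pair of groups that shared no circRNA library with the contrast of HT+EA and HT. It was not wholly apart from the choice, since the study traced its circRNAs back from messenger RNAs picked partly by their change from NC to HT. The comparison asks whether rats with surgery and inactive needles differed from rats with neither. No member passed the test in this comparison. By edgeR's quasi-likelihood test with Benjamini-Hochberg adjustment over 4838 circRNAs, 0 of the 3 tested members passed, and over all tested circRNAs 143, or 2.96%, had an unadjusted p below 0.05 and 0, or 0%, an adjusted one. DESeq2 gave 99 and 0, and limma-voom 192 and 0. The libraries of HT+SEA and NC did not overlap for 9.43% of the tested circRNAs and overlapped for all 3 tested members, too few to compare with that share. They also overlapped for novel_circ_0005281 and novel_circ_0010129, which were not tested and held a 0 in NC.

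For novel_circ_0005920, HT+SEA lay below NC by 126 CPM, a log2 fold change of -0.12 (SE 0.151) with a 95% interval from -0.45 to 0.20 (edgeR, unadjusted p = 0.435, adjusted p = 0.9995). This interval allows levels in HT+SEA from 0.733 to 1.15 times those in NC. For novel_circ_0000293 the log2 fold change was 0.07 (SE 0.338), with an interval from -0.66 to 0.80 (edgeR, unadjusted p = 0.843, adjusted p = 0.9995), or from 0.632 to 1.74 times. Its sign turned with the library left out, from -0.17 without HT+SEA replicate 3 to 0.39 without HT+SEA replicate 1.

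For the low-count novel_circ_0006485 the log2 fold change of HT+SEA against NC was 0.22 (SE 1.07), with an interval from -2.14 to 2.59 (edgeR, unadjusted p = 0.838, adjusted p = 0.9995). It passed the expression filter through NC replicate 3, HT+SEA replicate 3 and HT+EA replicate 1. In the fit of all 12 libraries it needed each of these, including HT+EA replicate 1, of the group it was chosen to be high in. With that library left out, the filter worked on a smaller group, and novel_circ_0006485 was fitted at a log2 fold change of 0.21. Its place among the tested members thus depended on the choice, and its test supports nothing further. novel_circ_0005281 and novel_circ_0010129 did not have enough counts for the test. In a fit of the 10258 circRNAs with a mean count of at least 2 their log2 fold changes were -1.13 (SE 1.56) and -0.07 (SE 0.978), with intervals from -4.44 to 2.19 and from -2.13 to 1.996. With 1 library left out, the difference of mean CPM, HT+SEA minus NC, ran from -25.4 without NC replicate 2 to -6.06 without NC replicate 3 for novel_circ_0005281, beside -13.7 with all libraries. For novel_circ_0010129 it was -0.57 with all libraries and turned sign, from -13.8 without NC replicate 1 to 6.51 without NC replicate 2. For novel_circ_0006485 the log2 fold change ran from -0.35 without NC replicate 1 to 0.83 without NC replicate 3. Intervals this wide still allow differences of several fold in either direction at these counts.

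Two-sided exact permutation tests of mean CPM between HT+SEA and NC, 5 in all and with 0.1 as the smallest p that 3 against 3 libraries allow, covered every member. The exact p was 0.8 for novel_circ_0000293, 0.3 for novel_circ_0005920, 0.9 for novel_circ_0006485, 0.4 for novel_circ_0005281 and 1 for novel_circ_0010129. This design could not have reached 0.05 for any of them.

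**Figure D3:**
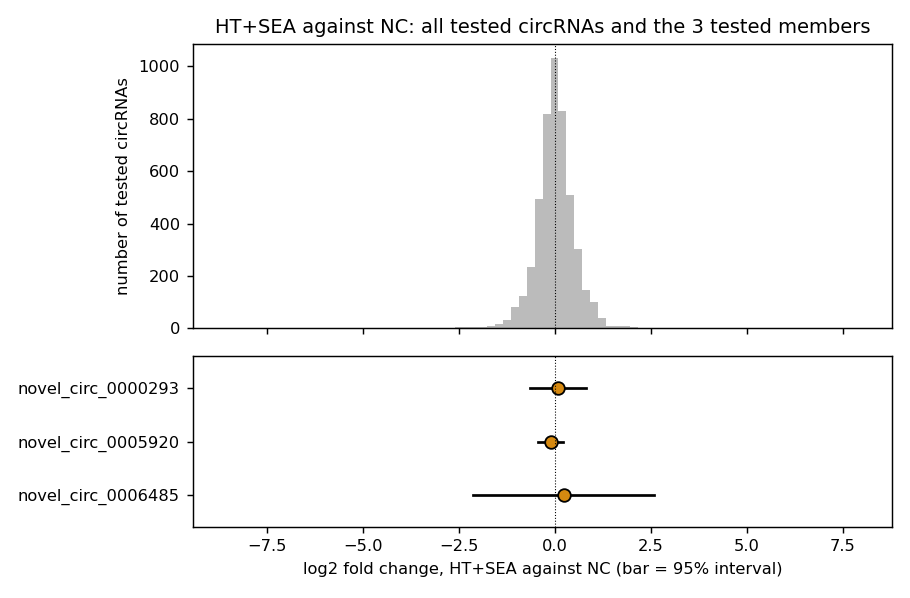
Top, number of tested circRNAs by log2 fold change of HT+SEA against NC; bottom, the 3 tested members with their 95% intervals (points are the fitted values). All 3 intervals include 0, and that of novel_circ_0006485, from -2.14 to 2.59, is the widest.

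**Figure D4:**
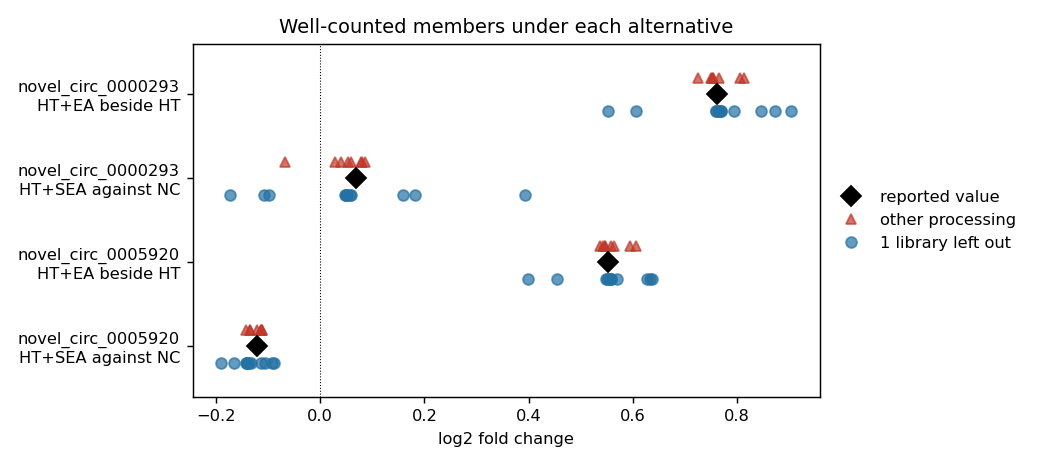
Log2 fold change of the 2 well-counted members as reported (diamonds), with other processing (triangles) and with 1 library left out (circles). HT+EA stayed above HT in each of these, from 0.55 to 0.90 for novel_circ_0000293 and from 0.40 to 0.64 for novel_circ_0005920, while HT+SEA against NC crossed 0 for novel_circ_0000293.

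Over the 5 members together, reads made up 0.161% to 0.166% of all circRNA reads in NC, 0.0949% to 0.124% in HT, 0.159% to 0.187% in HT+EA and 0.148% to 0.163% in HT+SEA. These shares follow novel_circ_0005920, which gave 3347 of the members' reads over all libraries, beside 673 from novel_circ_0000293 and 51 to 72 from each low-count member. HT was the low group in the shares, and NC, HT+EA and HT+SEA lay close together. Because the choice favoured circRNAs with low HT libraries, nothing is read from HT lying below NC and HT+SEA as well.

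The tested circRNAs whose log2 CPM across the 12 libraries was most like that of each well-counted member were listed as a description. Those nearest to novel_circ_0005920 were novel_circ_0015355 (Pearson r = 0.934, Spearman rho = 0.664) and novel_circ_0011442 (r = 0.928, rho = 0.818). Without HT replicates 2 and 3, the libraries farthest from the median, r was 0.690 and 0.775. Those nearest to novel_circ_0000293 were novel_circ_0012773 (r = 0.844, rho = 0.769) and novel_circ_0022299 (r = 0.795, rho = 0.713), with r of 0.701 and 0.668 without HT+SEA replicate 1 and HT replicate 1. Each pair was picked as the highest of 4837, all points share their library and its depth, and 3 of these 4 circRNAs had a mean count under 10.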

How the data were processed

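The authors deposited 1 table of raw read counts for 21914 circRNAs in 12 PVN libraries. Strand-specific libraries were sequenced, and the submitters' processing notes name HISAT2, featureCounts, GRCh38 and hg38 without roles, although the samples are rat and the methods name a rat assembly. The circRNA caller is not given in the sources used here. Alongside the counts, the file holds 12 columns of normalized values whose names did not map to the labels, and these were not used. Counts were taken as deposited, with groups from the labels. edgeR 4.0.16 (R 4.3.3) tested circRNAs kept by its default expression filter (minimum count 10, minimum total 15, by group), with TMM scaling, 1 quasi-likelihood fit of all 12 libraries, and Benjamini-Hochberg adjustment. CPM of all 5 members used the same effective library sizes. DESeq2 1.42.0, limma-voom (limma 3.58.1), other filters and scalings, a replicate block and leaving out each library were alternatives. Scripts were tested on simulated data.

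The members were named by identifier, with those of a mean count of at least 10 set apart, the 2 circRNAs with the highest Pearson r of log2 CPM (prior count 2) named for each well-counted member, and the nearest to the 0.05 threshold named on either side. Members, lists and tests were chosen with earlier results of these data known. No library repeated another of its own group: chi-square over its degrees of freedom ran from 3 to 4.96 among the 12 pairs of the same group. Pairs across groups were not checked in this way. Intervals cover the spread between libraries, and 3 libraries a group limit the precision. miRNA sequences and gene spans came from RefSeq tables of GRCr8, with 6 of 6 miRNA names and 10 of 10 gene symbols matched.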

Additional observations from a re-analysis of the deposited data

How the results depend on the processing

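The log2 difference of HT+EA from HT stayed within the replicate spread of the reported value under all 20 alternatives for novel_circ_0000293 (0.55 to 0.90) and novel_circ_0005920 (0.40 to 0.64), as did the CPM differences of the low-count members under the 17 alternatives that apply to them, although HT+SEA minus NC of novel_circ_0010129 changed sign within that spread (-13.8 to 6.51). For HT+SEA against NC, no alternative brought a tested member to an unadjusted p below 0.05, the lowest being 0.206, 0.287 and 0.465 for novel_circ_0000293, novel_circ_0005920 and novel_circ_0006485. The sign turned for novel_circ_0000293 with limma-voom (-0.0666). With 1 library left out, its value ran from -0.17 to 0.39, and was also below 0 without NC replicate 1 (-0.11) or HT+SEA replicate 2 (-0.10). For novel_circ_0006485 the range was -0.35 without NC replicate 1 to 0.83 without NC replicate 3, with -0.26 without HT+SEA replicate 3. It could not be fitted with only the groups compared, since it did not pass the filter there. The 143 circRNAs at unadjusted p below 0.05 became 529 with no filter and 321 with a mean count of at least 2, both of which test more circRNAs, and 138 to 219 with 1 library left out, the highest without NC replicate 2. The 0 at adjusted p below 0.05 became 21 with no filter, 1 with only the groups compared, and 0 to 1 with 1 library left out (1 when the library dropped was NC 1, HT+EA 1, HT+SEA 1 or HT+SEA 3). The cause of these single calls was not tested. A block for replicate number gave 126 and 0, and log2 fold changes of 0.03, -0.12 and 0.24 for the 3 tested members, and changed no call. Deviations of same-numbered NC and HT+SEA libraries correlated at -0.032, 0.00012 and 0.021, so the numbers were not taken to pair them. At under 10 reads a library, the low-count members allow no statement on modest differences.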
